A study of Homo sapiens with 4 samples.

Results

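The proteasome genes described here are 37 human genes, chosen by symbol and function and not by their measured values: 14 subunits of the 20S core, 17 subunits of the 19S cap, 3 activators of the core, and PSMF1, POMP and NFE2L1. They are 37 of the 60658 gene identifiers in the deposited tables, and all 37 were among the 14803 genes with a mean FPKM of at least 1 over the 4 libraries. FPKM is a number of sequenced fragments divided by the length of the transcript and the depth of the library. RNA was sequenced from HT29 and LIM1215 cells, established lines from human colorectal cancers, after a negative control siRNA or an siRNA against TMEM161A, a transmembrane protein gene. The 4 groups are HT29 with control siRNA, HT29 with TMEM161A siRNA, LIM1215 with control siRNA and LIM1215 with TMEM161A siRNA, all labelled as colon. Each group is 1 library, so no value below has an error between cultures, no difference was tested, and the words lower and higher compare the libraries at hand. Where a gene has a pair of values for a line, the control comes first and the knockdown second. The siRNA dose and the time of collection are not given in the sources used here.

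TMEM161A was at an FPKM of 42.6 and 4.64 in HT29 and of 39.1 and 7.61 in LIM1215, lower in the knockdown library of each line. All 10 markers of intestinal epithelium examined were at an FPKM of 67.8 or more in both LIM1215 libraries. In both libraries labelled HT29, 4 of these 10 (KRT20, CDX1, VIL1 and LGALS4) were below an FPKM of 1, although EPCAM, CDH1, CDX2, KRT8, KRT18 and KRT19 were present. HT29 cells are generally known to express these 4 genes, so the identity of the 2 libraries labelled HT29 is in doubt. It was not tested, HT29 below stands for the label, and the doubt touches every value set between the lines. Of 16 markers of fibroblasts, leukocytes and endothelium, 15 were at an FPKM of 0.993 or less in each of the 4 libraries. COL1A1 was the exception, at 17.6 and 15.95 in HT29 and 4.83 and 8.56 in LIM1215. PTPRC, CD3E, CD3D and MS4A1, which define leukocytes, were at 0 in all 4. In libraries from bulk cultures, fewer cells of a type and less RNA per cell cannot be told apart.

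The proteasome degrades proteins tagged with ubiquitin. Its 20S core is a barrel in which rings of alpha subunits guard the entry and rings of beta subunits carry the protease sites. The 19S cap binds the ubiquitin chain, removes it, and threads the substrate into the barrel with a ring of ATPases. POMP is the chaperone that matures the beta rings, PSME1, PSME2 and PSME3 form alternative caps that open the core without ATP, and PSMF1 is a binding partner of the core that inhibits it in vitro. NFE2L1 is a transcription factor held in the membrane of the endoplasmic reticulum, where it is normally destroyed. When proteasomes are inhibited it is released by VCP, stripped of its sugars by NGLY1, cut by DDI2, and switches on the genes of nearly all proteasome subunits through antioxidant response elements in their promoters.

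The sequences below are the start regions of 5 members on which the results turn: PSMA2, PSMD14 and PSMF1 had the lowest knockdown ratios in HT29, NFE2L1 had the highest, and PSMD12 was the member that differed most between the control libraries. They come from RefSeq on GRCh38.p14, run 5′ to 3′ on the strand of the gene from 250 bases before the annotated start to at most 10 bases from it, and lie at chr7:42932165-42932424 (minus strand, PSMA2), chr2:161308175-161308434 (plus strand, PSMD14), chr20:1118352-1118611 (plus strand, PSMF1), chr17:48048109-48048358 (plus strand, NFE2L1) and chr17:67366576-67366827 (minus strand, PSMD12). Capitals mark the letters CCAAT (the CCAAT box), CCGGAAG (an ETS core) and TGACNNNGC (an antioxidant response element core) on either strand, so that ATTGG and CTTCCGG are the first 2 read from the other strand.
PSMA2: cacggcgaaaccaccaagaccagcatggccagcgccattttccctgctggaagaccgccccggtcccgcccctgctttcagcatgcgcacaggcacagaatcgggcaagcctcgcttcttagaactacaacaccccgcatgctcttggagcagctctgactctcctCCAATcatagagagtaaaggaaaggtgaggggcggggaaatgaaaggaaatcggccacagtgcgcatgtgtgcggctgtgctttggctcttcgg
PSMD14: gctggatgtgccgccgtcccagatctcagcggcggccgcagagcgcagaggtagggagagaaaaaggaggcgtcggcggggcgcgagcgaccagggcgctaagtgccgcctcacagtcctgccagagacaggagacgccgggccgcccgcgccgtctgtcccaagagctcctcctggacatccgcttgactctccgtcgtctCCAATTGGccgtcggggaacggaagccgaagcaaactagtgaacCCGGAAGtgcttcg
PSMF1: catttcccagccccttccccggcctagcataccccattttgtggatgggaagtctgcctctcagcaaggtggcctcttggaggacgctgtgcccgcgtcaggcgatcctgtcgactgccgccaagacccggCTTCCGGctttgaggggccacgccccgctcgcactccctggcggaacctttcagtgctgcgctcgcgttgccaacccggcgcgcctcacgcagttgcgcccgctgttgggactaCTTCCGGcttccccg
NFE2L1: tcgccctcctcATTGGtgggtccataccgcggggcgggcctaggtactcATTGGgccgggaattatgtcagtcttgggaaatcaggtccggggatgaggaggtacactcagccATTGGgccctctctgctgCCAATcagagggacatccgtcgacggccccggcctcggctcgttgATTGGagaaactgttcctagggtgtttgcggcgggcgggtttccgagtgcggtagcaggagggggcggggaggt
PSMD12: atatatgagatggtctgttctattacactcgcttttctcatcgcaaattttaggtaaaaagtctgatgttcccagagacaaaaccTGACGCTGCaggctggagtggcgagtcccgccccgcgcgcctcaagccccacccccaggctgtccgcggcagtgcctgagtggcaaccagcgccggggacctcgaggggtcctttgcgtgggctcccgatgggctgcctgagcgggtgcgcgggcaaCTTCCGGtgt

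PSMF1 and NFE2L1 each have a second window in the table that holds none of these motifs, and the window with the most matches is shown. PSMA2 holds a CCAAT box at −84, counted from the first transcribed base. In PSMD14 CCAAT boxes of both strands overlap at −48 and −45, and an ETS core begins at −4. PSMF1 holds 2 ETS cores on the minus strand of the window and NFE2L1 holds 5 CCAAT boxes, while PSMD12 has the only TGACNNNGC match of the 5, beginning at −165. Windows of 300 bases, 250 before and 50 after the start, were found for 32 of the 37 members, and PSMA7, PSMB1, PSMB6, PSMB7 and PSMD4 had no entry. TGACNNNGC was present for 9 of the 32 members (28.1%; PSMA4, PSMB3, PSMC4, PSMC5, PSMD1, PSMD3, PSMD12, PSME1 and PSME2), against 13.3% of all 35116 windows in the table. CCAAT was present for 17 members (53.1%, against 34.6% of windows) and CCGGAAG for 12 (37.5%, against 10.3%). A member can have several windows, so its share is not strictly comparable with a share of windows. The median log2 ratio of FPKM + 1, knockdown over control, was 0.04 in HT29 and −0.04 in LIM1215 for the 9 members with TGACNNNGC, and −0.09 and −0.10 for the other 23. With CCAAT it was 0.03 and −0.09, and without it −0.14 and −0.10. With CCGGAAG it was −0.10 and −0.14, and without it −0.02 and −0.09. A match of letters is a description of the window, and binding there was not measured.

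All 37 genes were abundant. The HT29 control library ran from an FPKM of 56.5 (PSMC6) to 320 (PSMD2) with a median of 141, and its LIM1215 counterpart from 55.7 (POMP) to 315 (PSMD2) with a median of 138. The knockdown libraries had a similar range, 48.8 (POMP) to 286 (PSMD2) in HT29 and 50.9 (PSMD14) to 294 (PSMD2) in LIM1215. The ratio of the highest to the lowest member lay between 5.66 and 5.86 in the 4 libraries. By mean FPKM over the libraries, the members stood between the 84.6 percentile (POMP) and the 98.0 percentile (PSMD2) of the 14803 genes compared. Core subunits had the higher levels, with a median FPKM of 198 (HT29) and 189 (LIM1215) in the control libraries, against 106 and 95.8 for cap subunits. PSMD2, the scaffold subunit of the cap that binds ubiquitin shuttles, was the exception: it was above every core subunit in both control libraries. Summed over the 37 genes, the FPKM was 5702 and 5481 in HT29 and 5664 and 5273 in LIM1215, which is 0.726%, 0.660%, 0.636% and 0.589% of all FPKM of the library.

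**Figure D1:**
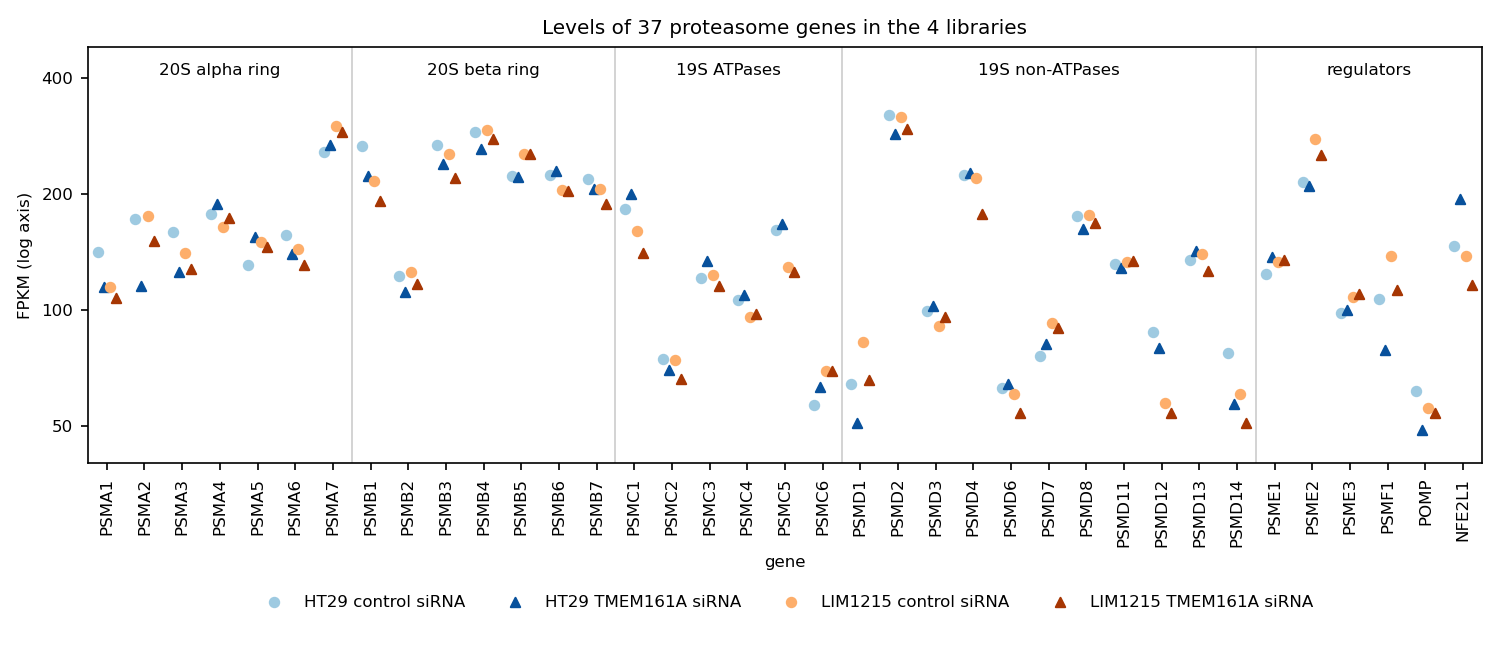
FPKM on a log axis for the 37 proteasome genes, with 1 point per library and the genes grouped by their place in the complex. Members lie between 48.8 and 320 in every library, and the points of a gene lie close together compared with the spread between genes.

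No member differed by 1.5-fold or more between control and knockdown in either line. In HT29, 0 of 37 passed 1.5-fold, against 14.8% of all genes compared and 7.87% of the 2516 genes with a mean FPKM of at least 50, the level at which the members lie. In LIM1215, 0 of 37 passed, against 12.8% of all genes and 4.93% of the abundant ones. A smaller limit of 0.32 on the log2 scale was used as well. In HT29, 81.1% of the members stayed inside it, compared with 62.5% of all genes and 71.9% of the abundant genes. In LIM1215 every member did under the scaling used, compared with 65.7% and 80.1%. The SD of the log2 ratio over the members was 0.21 in HT29 and 0.10 in LIM1215, and over the abundant genes 0.39 and 0.35. PSMA2 in HT29 lay just inside the 1.5-fold limit. It passed 1.5-fold when the libraries were rescaled to a common sum, to a common upper quartile or to a median ratio of 0.

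**Figure D2:**
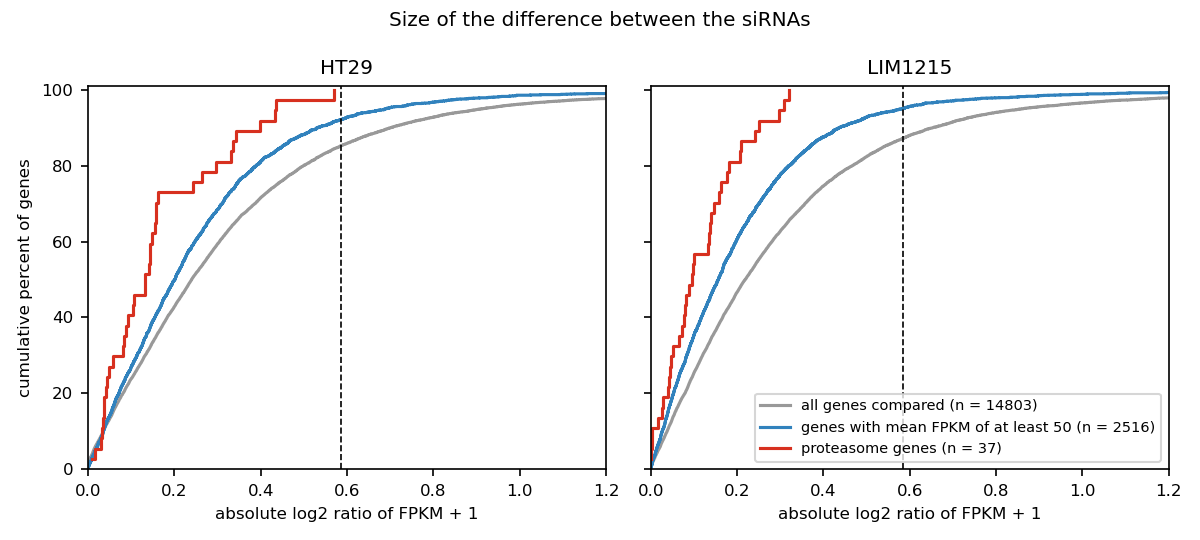
Cumulative percent of genes against the absolute log2 ratio of FPKM + 1 between TMEM161A siRNA and control siRNA, for the 37 proteasome genes, the 2516 genes with a mean FPKM of at least 50 and all 14803 genes compared. The dashed line is 1.5-fold, which 14.8% of all genes passed in HT29 and 12.8% in LIM1215 and no proteasome gene passed in either line.

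Small differences leaned to lower values in the knockdown libraries. In HT29, 20 of 37 members had a log2 ratio below 0 (44.4% of all genes did) and the median was −0.04, against 0.04 over all genes. In LIM1215, 30 of 37 were below 0 (46.4% of all genes) and the median was −0.10, against 0.02. The number of members below 0 was 20 to 28 (HT29) and 28 to 33 (LIM1215) over the other scalings and filters tried, and both medians stayed negative. To set these differences beside counting error, fragments were estimated from the steps between low FPKM values, and a gene's knockdown level was given as a percent of control with an exact 95% Clopper-Pearson interval. The interval covers counting error only. In HT29 it lay below 100% for 17 members and above it for 8, against 27.3% and 36.2% of the genes with an interval. Of the abundant genes 29.2% lay below and 49.8% above in HT29. In LIM1215 it lay below 100% for 23 members (27.7% of genes; 35.8% of abundant genes). It lay above 100% there for 1 member, PSMD3 (32.9% of genes; 38.2% of abundant genes). POMP had the fewest estimated fragments, 562 in the LIM1215 control library, and PSMD2 had the most there, 13885.

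**Figure D3:**
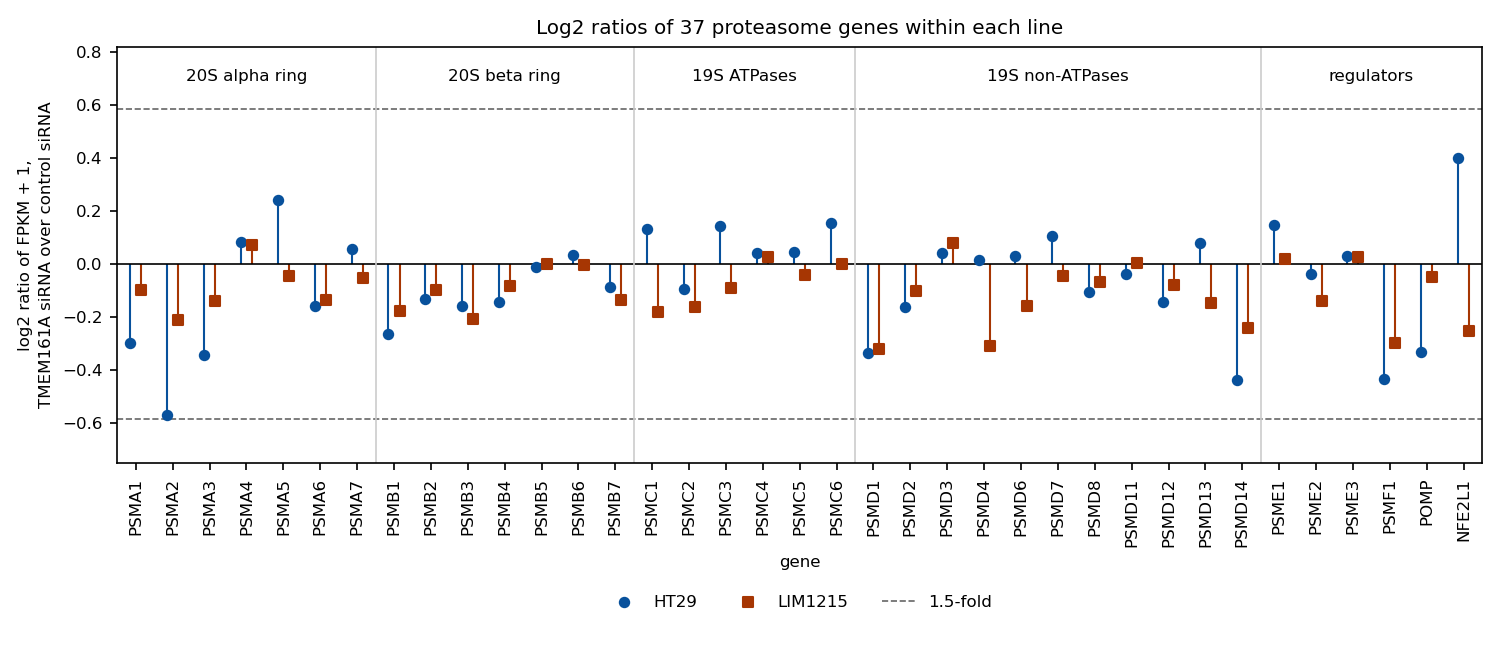
Log2 ratio of FPKM + 1, TMEM161A siRNA over control siRNA, for each of the 37 proteasome genes in HT29 and in LIM1215, with dashed lines at 1.5-fold. The lowest value is −0.57 (PSMA2 in HT29) and the highest 0.40 (NFE2L1 in HT29), and LIM1215 values lie between −0.32 and 0.08.

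Among the alpha subunits, PSMA2 (chr7:42916828-42932185 in GENCODE on GRCh38) differed most. Its FPKM was 172 and 115 in HT29 and 175 and 151 in LIM1215. The controls of the lines were alike, and each knockdown library was lower. The log2 ratio was −0.57 in HT29, where the knockdown level was 67.2% of control (counting interval 63.6 to 71.0%), and −0.21 in LIM1215, at 86.4% (81.8 to 91.2%). A gene model on the same strand that overlaps PSMA2, ENSG00000256646, was at 9.44, 7.49, 15.6 and 15 in the same order of libraries. PSMA1, PSMA3 and PSMA6 were also lower in both knockdown libraries. PSMA3 had log2 ratios of −0.34 and −0.14, and its antisense transcript PSMA3-AS1 was higher in the knockdown library of each line, at 16.5 and 21.5 in HT29 and 15.4 and 26.4 in LIM1215. Whether fragments were counted by strand is not given in the sources used here, so the part of the antisense transcript in the PSMA3 values was not tested. PSMA5 was the alpha subunit with the highest ratio in HT29, at an FPKM of 130 and 154 (log2 ratio 0.24; 118% of control, 115 to 122%). In LIM1215 PSMA5 was at 150 and 145 (log2 ratio −0.04, and 0.06 after removal of the trend on transcript length and GC content). PSMA4 was the only member above 0 in both lines under every setting, by a small margin: 177 and 188 in HT29, 164 and 173 in LIM1215.

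The 3 proteolytic beta subunits differed little. PSMB5, which carries the chymotrypsin-like site, was at 222 and 220.9 in HT29 and at 254 in both LIM1215 libraries. PSMB6, with the caspase-like site, was at 224 and 229 in HT29 and at 204 in both LIM1215 libraries. PSMB7, with the trypsin-like site, was at 218 and 205 in HT29 and 206 and 188 in LIM1215. The levels of PSMB5 and PSMB6 thus lay within counting error of their controls in both lines, with intervals from 94.3 to 108% of control, while PSMB7 was at 94.1% (89.8 to 98.7%) and 91.0% (86.5 to 95.9%). The structural beta subunits PSMB1, PSMB2, PSMB3 and PSMB4 were lower in both knockdown libraries, with log2 ratios between −0.26 (PSMB1) and −0.13 (PSMB2) in HT29 and between −0.21 (PSMB3) and −0.08 (PSMB4) in LIM1215.

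The 6 ATPases of the cap were mostly above 0 in HT29, as abundant genes were. There 5 of 6 had a log2 ratio above 0, against 53.9% of all genes and 60.4% of the abundant ones. The ATPase median was 0.09, near the 0.08 of the abundant genes. After rescaling to a common sum 3 of the 6 were above 0 and the ATPase median fell to 0.01. PSMC6 was at an FPKM of 56.5 and 63.0 in HT29 and at 69.3 in both LIM1215 libraries. PSMC1 was at 183 and 200 in HT29 and at 159 and 141 in LIM1215, higher in the HT29 knockdown and lower in the LIM1215 knockdown library. PSMC3 showed the same pair of directions, at 121 and 134 in HT29 and 123 and 115 in LIM1215. In LIM1215 the ATPase median was −0.06, with 4 of 6 below 0.

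The 11 other cap subunits held the lowest ratio outside the core in each line, with PSMF1 nearly as low in HT29 (−0.43). PSMD14 (chr2:161308425-161411717), the enzyme that cuts ubiquitin chains off the substrate, was at an FPKM of 77.1 and 56.8 in HT29 and of 60.3 and 50.9 in LIM1215. Each knockdown library was lower than its control, but the HT29 knockdown and LIM1215 control libraries were close to each other. The log2 ratios were −0.44 (73.6% of control, 69.1 to 78.5%) and −0.24 (84.4%, 78.4 to 90.8%). PSMD1, a large scaffold subunit at the base of the cap, was at 64.2 and 50.7 in HT29 and at 82.4 and 65.8 in LIM1215, a similar step in each line (log2 ratios −0.33 and −0.32). PSMD4, a ubiquitin receptor, was at 224 and 226 in HT29 and at 220 and 177 in LIM1215. Only the LIM1215 knockdown library stood below the other 3, at 80.6% of its control (77.3 to 84.2%). PSMD3 had the highest ratio in LIM1215, 90.6 and 95.7 (log2 ratio 0.08), beside 99.2 and 102 in HT29 (log2 ratio 0.04, below 0 in 2 of the alternatives). PSMD2 was at 320 and 286 in HT29 and 315 and 294 in LIM1215.

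Of the activators, PSME1 and PSME2 form 1 mixed ring and are induced by interferon. PSME1 was at an FPKM of 124 and 137 in HT29 (104 to 118% of control) and 133 and 135 in LIM1215 (95.1 to 108%). PSME2 was at 215 and 209 in HT29 (92.3 to 103%) and 277 and 252 in LIM1215 (86.3 to 95.8%). Beyond counting error, PSME1 was thus higher in HT29 alone and PSME2 lower in LIM1215 alone. PSME3, the nuclear activator, was at 97.9 and 99.9 in HT29 and 108 and 110 in LIM1215, within counting error of control in each line. PSMF1 (chr20:1113240-1189415) was lower in both knockdown libraries, at 106 and 78.5 in HT29 and 138 and 112 in LIM1215. Its log2 ratios were −0.43 (73.8% of control, 71.3 to 76.3%) and −0.30 (81.3%, 78.9 to 83.8%), among the 3 lowest members in each line. POMP was at 61.7 and 48.8 in HT29 (79.1%, 70.8 to 88.2%) and at 55.7 and 53.8 in LIM1215 (96.7%, 86.0 to 108%). Its log2 ratio in HT29 was −0.33, and −0.04 after removal of the trend on transcript length and GC content.

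NFE2L1 (chr17:48048329-48061545) was the member with the greatest difference between the lines. Its FPKM was 146 and 193 in HT29 and 138 and 116 in LIM1215. The controls were close, the HT29 knockdown library was the highest of the 4 and the LIM1215 knockdown library the lowest. The log2 ratio was 0.40 in HT29 (132% of control, 129 to 135%) and −0.25 in LIM1215 (84.0%, 81.7 to 86.3%). Over the alternatives it lay between 0.32 and 0.40 in HT29 and between −0.29 and −0.24 in LIM1215. The members with a TGACNNNGC match had log2 ratios from −0.33 (PSMD1) to 0.15 (PSME1) in HT29, and a link to NFE2L1 was not tested. NFE2L1 was the only member higher by at least 0.32 in HT29 (20.9% of all genes were). The members lower by at least 0.32 in HT29 were PSMA2, PSMA3, PSMD1, PSMD14, PSMF1 and POMP, 6 of 37 (16.7% of all genes). In LIM1215 no member passed 0.32 in either direction (18.6% of genes higher, 15.7% lower). PSMD1 was at −0.320 there, just inside the exact limit of 0.322. Under some alternatives PSMD1 and PSMD4 passed it in LIM1215, with lowest values of −0.343 and −0.335.

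Core and cap differed from each other in HT29 and hardly in LIM1215. Of all genes 44.4% were below 0 in HT29, with a median of 0.04. The median log2 ratio there was −0.14 over the 14 core subunits, with 10 of 14 below 0. Over the 17 cap subunits it was 0.03, with 7 of 17 below 0, near the values of all genes. The difference of the core and cap medians was −0.17, and −0.09 when means replaced medians. After rescaling to a common sum the cap median was below 0, at −0.05, with 12 of 17 subunits lower. Under that rescaling 51.9% of all genes were lower, with a median of −0.02. The cap median was within 0.02 of 0 under the other scalings. The direction of the cap thus changed with the scaling, while the core median stayed below 0 under every setting. A common rescaling moves core and cap alike, so it could hardly change their difference. After removal of the trend on transcript length and GC content the medians were −0.13 for the core and −0.01 for the cap. Within the core the alpha ring had a median of −0.16 and the beta ring of −0.13. Within the cap the ATPases had 0.09 and the other subunits −0.04. Of all genes 46.4% were below 0 in LIM1215, with a median of 0.02. The LIM1215 medians were −0.10 for the core, with 13 of 14 below 0, and −0.09 for the cap, with 13 of 17 below 0. Their difference was −0.01, and over the alternatives it lay between −0.01 and 0.06. No spread between cultures is known, so whether core and cap differ beyond it was not tested.

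Across both lines, 19 of 37 members were below 0 in each, against 28% of all genes, 6 were above 0 in each (36%) and 12 had opposite signs (33.8%). Of those 12, 11 were higher in the HT29 and lower in the LIM1215 knockdown library. The members below 0 in both lines under the scaling used and under all 8 other settings numbered 16: PSMA1, PSMA2, PSMA3, PSMA6, PSMB1, PSMB2, PSMB3, PSMB4, PSMB5, PSMB7, PSMD1, PSMD2, PSMD8, PSMD14, PSME2 and PSMF1. The same held for 24.4% of the 10526 genes with a value under every setting and for 23.5% of the abundant ones. Only removal of the trend on transcript length and GC content could take a member out of this set. Pseudocounts and filters keep the sign of a ratio, and the common rescalings moved the ratios down in both lines. PSMB5 was in the set with a log2 ratio of −0.0005 in LIM1215. The set of 16 holds 10 of the 14 core subunits, 4 of the 17 cap subunits, all from its non-ATPases, and none of the 6 ATPases. The ATPase PSMC2 was below 0 in both lines (−0.09 in HT29 and −0.16 in LIM1215). It left the set because its HT29 value was 0.06 after removal of the trend. By counting interval, 16 members were below 100% in both lines (14.8% of genes and 19.7% of abundant genes). This is a different set of 16, with PSMC2 and PSMD12 in place of PSMB5 and PSME2. No member was above 100% in both lines (19% and 28.2%), and PSMC1, PSMC3, PSMD13 and NFE2L1 were on opposite sides (9.43% and 12.8%). Over the 37 genes, the correlation of the HT29 ratios with the LIM1215 ratios was 0.418 (Pearson) and 0.460 (Spearman), beside 0.266 and 0.388 over all genes and 0.505 (Pearson) over the abundant genes. Genes of a library share its depth and composition and are no independent replicates.

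**Figure D4:**
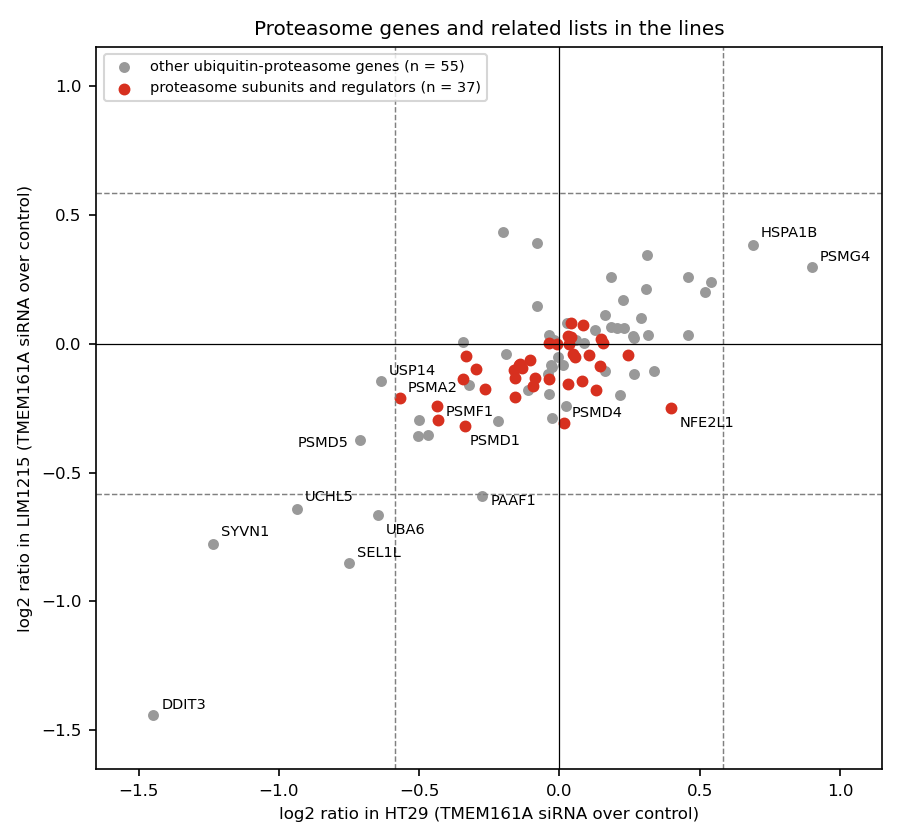
Log2 ratio of FPKM + 1 in LIM1215 against that in HT29 for the 37 proteasome genes and for 55 other genes of the ubiquitin-proteasome system, with dashed lines at 1.5-fold. All 37 proteasome genes lie inside the dashed square, and DDIT3, SYVN1, SEL1L, UCHL5 and UBA6 lie beyond it at the lower left.

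The control libraries of the lines were also compared, which uses the same control libraries as the knockdown comparisons. Only PSMD12 passed 1.5-fold, 1 of 37 against 38% of all genes and 25.7% of the abundant genes. PSMD12, a subunit of the cap's lid, was at an FPKM of 87.6 and 79.3 in HT29 and at 57.1 and 54.1 in LIM1215, so both LIM1215 libraries stood below both HT29 libraries. The log2 difference of the controls, LIM1215 over HT29, was −0.61, and −0.40 after removal of the trend on transcript length and GC content. Inside a log2 difference of 0.32 stood 86.5% of the members, compared with 40.9% of all genes and 51.9% of the abundant genes. The median of the members was −0.02, beside 0.05 over all genes and 0.14 over the abundant genes. Rescaling to a common sum moved the median of the members to −0.20 and that of all genes to −0.11.

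Other genes of the system were taken from 7 lists of 57 genes, of which 55 passed the filter and PSMB11 and PSMA8 did not. Of the interferon-induced catalytic subunits that replace PSMB6, PSMB7 and PSMB5 in the immunoproteasome, PSMB8 and PSMB9 were higher in both LIM1215 libraries than in both HT29 libraries, and PSMB10 was at a similar level in all 4. PSMB8, the counterpart of PSMB5, was at an FPKM of 0.367 and 0.553 in HT29 and at 88.6 and 106 in LIM1215. PSMB9, the counterpart of PSMB6, was at 12.4 and 11.7 in HT29 and 28.4 and 37.5 in LIM1215. PSMB10, the counterpart of PSMB7, was at 52.5 and 51.4 in HT29 and 56.2 and 53.1 in LIM1215, and its controls differed by a log2 ratio of 0.10, within counting error. In every library each immunoproteasome subunit was below its constitutive counterpart. PSMB9 overlaps PSMB8 and TAP1, which lie on the opposite strand, and how shared fragments were counted is not given in the sources used here.

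**Figure D5:**
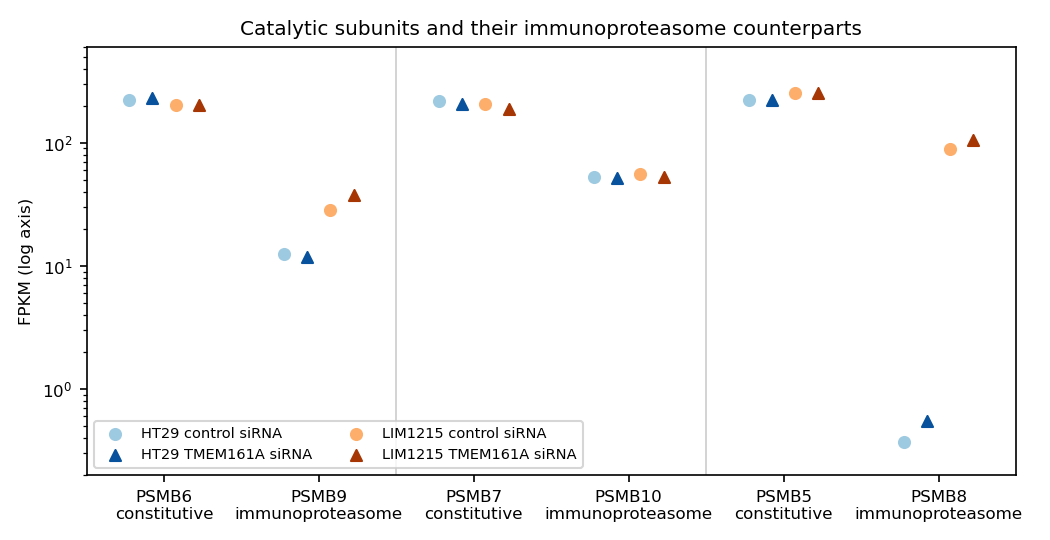
FPKM on a log axis of the 3 constitutive catalytic subunits and their immunoproteasome counterparts, with 1 point per library. PSMB8 lies at 0.367 and 0.553 in HT29 and at 88.6 and 106 in LIM1215, while PSMB5 lies between 220.9 and 254 in all 4 libraries.

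Of 8 assembly chaperones, 2 passed 1.5-fold in HT29 and 1 in LIM1215. These counts, and those of the lists that follow, stand beside 14.8% of all genes in HT29 and 12.8% in LIM1215, and with lists this short nothing is read from them. PSMG4, a chaperone of the alpha ring, was higher in the HT29 knockdown, at an FPKM of 9.61 and 18.8 (log2 ratio 0.90), and at 20.4 and 25.3 in LIM1215 (0.30). PSMD5, a chaperone of the ATPase ring, was lower in HT29, at 39.6 and 23.8 (−0.71), and at 41.3 and 31.6 in LIM1215 (−0.38). PAAF1, which binds the ATPases, was lower in LIM1215, at 14.2 and 9.06 (−0.59), and at 9.25 and 7.47 in HT29 (−0.27). The alpha-ring chaperone pair PSMG1 and PSMG2 had log2 ratios of −0.50 and −0.47 in HT29 and −0.30 and −0.35 in LIM1215. Over the 8 chaperones the median was −0.13 in HT29 and −0.27 in LIM1215.

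Among 7 proteasome-binding factors, the deubiquitinase UCHL5 had the lowest ratio in each line. It was at an FPKM of 41.3 and 21.1 in HT29 and 41.9 and 26.4 in LIM1215, past 1.5-fold in each line (log2 ratios −0.94 and −0.64), though only −0.50 in LIM1215 after removal of the trend on transcript length and GC content. USP14, the other deubiquitinase of the list, passed in HT29 alone, at 23.2 and 14.6 (−0.64), and was at 32.1 and 28.9 in LIM1215 (−0.15). The difference between the lines was not tested. ADRM1, the receptor that docks UCHL5 on the cap, was at 125 and 142 in HT29 and 128 and 134 in LIM1215. The median over the 7 was −0.04 in each line.

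Of 15 genes that process NFE2L1 or act beside it, 2 passed 1.5-fold in each line, both lower, a share near that of all genes (14.8% in HT29 and 12.8% in LIM1215). SYVN1, the ubiquitin ligase of the endoplasmic reticulum that marks NFE2L1 for destruction, was at 71.4 and 29.8 in HT29 (−1.23) and at 58.2 and 33.6 in LIM1215 (−0.78). SEL1L, its partner in the membrane, was at 47.8 and 28.02 in HT29 (−0.75) and at 49.2 and 26.8 in LIM1215 (−0.85). NGLY1 had log2 ratios of −0.50 and −0.36, and DDI2 of −0.22 and −0.30. VCP was at 149 and 117 in HT29 (−0.34) and 189 in both LIM1215 libraries (0.00). HCFC1 had the highest ratio of the list in HT29, 0.46, beside 0.03 in LIM1215, and FAF2 in LIM1215, 0.11. The list's median was −0.03 in HT29 and −0.09 in LIM1215.

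Of 6 ubiquitin genes and activating enzymes, UBA6 was lower by more than 1.5-fold in each line, at 34.95 and 21.96 in HT29 (−0.65) and 40.2 and 24.96 in LIM1215 (−0.67), and −0.41 and −0.57 after removal of the trend. UBA1, the main ubiquitin-activating enzyme, had log2 ratios of 0.06 and 0.02. RPS27A, a ubiquitin fusion gene, had the highest, 0.46 and 0.26. None of 8 ubiquitin receptors and shuttles passed 1.5-fold in either line. In HT29 their highest ratio was 0.52 (NPLOC4) and their lowest −0.11 (UFD1), and in LIM1215 0.21 (UBQLN4) and −0.29 (SQSTM1).

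The last list was 8 genes known to be induced when the proteasome is inhibited. DDIT3, a stress transcription factor, was lower in both knockdown libraries, at an FPKM of 130 and 46.9 in HT29 (−1.45) and 57.6 and 20.6 in LIM1215 (−1.44). HSPA1B, a heat-shock chaperone, was higher past 1.5-fold in HT29, at 23.5 and 38.5 (0.69), and was at 19.8 and 26.1 in LIM1215 (0.38). HSPA1A and HSPA1B are near-identical copies, so the division of fragments between them is uncertain. DNAJB1, their co-chaperone, had log2 ratios of 0.54 and 0.24. HMOX1 had the highest ratio in LIM1215, 0.43, at 27.9 and 38.0, and −0.20 in HT29. The median of the list was 0.25 in HT29 and 0.15 in LIM1215, with 5 of 8 genes above 0 in each line, beside 53.9% and 53.1% of all genes.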

How the data were processed

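Cultures of HT29 and LIM1215 were analysed by RNA sequencing, 1 library for each of 4 groups taken from the sample titles. A miRNeasy Micro kit and a stranded mRNA library kit were used, per the labels' protocols. The authors deposited FPKM for 60658 Ensembl gene identifiers. Per the submitters' processing notes, HISAT2 2.1.0, SAMtools 1.20, Cufflinks 2.2.1, Cuffdiff and GRCh38 were used, without their order. The annotation, any filter and the handling of strand are not given in the sources used here. A few abundant genes can lower the FPKM of all others.

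Symbols came from GENCODE release 44 on GRCh38 for 56550 identifiers. The measure was the log2 ratio of FPKM + 1, which understates the change of low genes, for genes with a mean FPKM of at least 1. A fold of 1.5 was the limit, with no p-value. The members, the lists and the limits were chosen with earlier results of these data known. The background of genes with a mean FPKM of at least 50 and the promoter letters were added after values were seen. Named were the catalytic subunits, PSMD14, the activators, PSMF1, POMP, NFE2L1, the 3 highest and 3 lowest members of each line, members past 1.5-fold and, of the other lists, genes past 1.5-fold and the extremes. PSMA1, PSMA6, PSMC1, PSMC3, PSMD2, PSMB1 to PSMB4 and some partners were added after their values were seen. The result of 1 gene of the other lists is not reported here, and the gene remains in the counts and medians of its list.

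Depth was estimated from the steps of low FPKM values: 79.6 to 82.0% of them lay within 0.03 of whole fragments, and an FPKM of 1 stood for 18.1 to 21.54 fragments per kilobase. As not all values were whole, no count test was run. Of the members, 11 overlap another gene at an FPKM of 1 or more, and 40 pseudogenes named after 16 members were all at 0.711 or less. Alternatives were pseudocounts of 0.1 and 5, no filter or a mean FPKM of at least 5, a common sum (TPM), upper quartile scaling, centring, removal of a lowess trend on transcript length and GC content, other folds, and means. Computation used Python 3.11.15, numpy 2.4.6, pandas 2.3.3, scipy 1.17.1, statsmodels 0.14.6 and matplotlib 3.10.9, and was tested on simulated data.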

Additional observations from a re-analysis of the deposited data

Results flagged for a closer look

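In 4 members the knockdown library was on opposite sides of control in the lines, beyond counting error in each. Of all genes 9.43% did this, and of the abundant genes 12.8%, so 4 of 37 is near the background. The log2 ratio in LIM1215 minus that in HT29 was −0.65 for NFE2L1, −0.313 for PSMC1, −0.233 for PSMC3 and −0.229 for PSMD13, all higher in the HT29 and lower in the LIM1215 knockdown library. PSMD13, a lid subunit, was at an FPKM of 134 and 142 in HT29 and 140 and 126 in LIM1215. With 1 library per group these differences between the lines were not tested.

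The same kind of opposition was seen for 3 named genes of the other lists. SEM1, the smallest subunit of the cap, differed by −0.415 (log2 ratios 0.22 in HT29 and −0.20 in LIM1215), and NFE2L3, a relative of NFE2L1, by −0.268 (0.16 and −0.11). HMOX1 differed the other way, by 0.632 (−0.20 and 0.43). These differences were not tested either.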

How the results depend on the processing

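No paired analysis was possible because each group is 1 library and no replicate numbers are given, and for the same reason no library could be left out. Of 75 recomputed summary values, 63 kept to the spread allowed and 12 moved. The count of HT29 members past the limit, 0, became 7 at a log2 limit of 0.32 and 1 (PSMA2) after rescaling to TPM, upper quartile scaling or centring. The HT29 median became −0.12 under TPM, and the HT29 difference of core and cap −0.094 with means. Between the control libraries the count of 1 became 5 at the log2 limit of 0.32 and 0 at 2-fold, with a pseudocount of 5 or after removal of the trend, and the median became −0.20 under TPM and −0.18 under upper quartile scaling. No LIM1215 summary moved beyond that spread, but the difference of core and cap there, −0.01, changed sign to 0.014 with means and to 0.06 after removal of the trend. The cause of these shifts was not tested. PSMD12 was above 0 in both lines, at 0.07 and 0.04, after removal of the trend. Depth limits POMP most among the members, and an FPKM under 1, as for PSMB8 in HT29, rests on few fragments.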
